A study of Mus musculus with 24 samples.

Results

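The operated and the opposite hemisphere of sham-operated mouse brains were compared within 4 mice, which gave 8 of the 24 arrays of the study. Each mouse gave one array titled with its number and IP (ipsilateral, the hemisphere on the side of surgery) and one with the same number and CL (contralateral). All mice of the study were males of the inbred C57Bl/6j background, aged 8 to 10 weeks. In the 4 sham mice the treatment was sham surgery, so no artery was occluded. In 8 other mice one middle cerebral artery was blocked by the intraluminal method for 90 min (MCAO, a model of ischaemic stroke), and brains were taken 30 min later, 2 h after ischaemia began. All brains were perfused with cold saline before the hemispheres were separated and frozen, so both sides of every sham mouse shared the perfusion and the freezing. The labels do not give the steps of the sham operation, the time from it to sampling, or whether the operated side was left or right. Whether sham and MCAO brains were matched in time after surgery is therefore not known. Each array holds the RNA of a whole hemisphere.

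A hemisphere contains cortex, striatum, hippocampus and thalamus, with neurons, glia and blood vessels mixed. Immediate early genes such as Fos, Junb and Egr1 are transcribed within minutes of a stimulus without new protein synthesis, and surgery, anaesthesia and handling can all induce them. Where a brain is cut, its parts can also hold unequal amounts of a region, and marker genes of striatum, olfactory bulb or myelinated tracts are the usual way to describe that. A sham comparison of sides therefore measures operation and dissection together. If the operated side was the same in every mouse, any difference between left and right is included too. In such bulk tissue fewer cells of a type and less RNA per cell cannot be told apart.

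The values were log2 probe-set signals, and the 22206 rows other than array controls were tested; 19572 of them carried 1 gene symbol. Above background means a signal higher than that of 95% of the negative-control rows on the same array. Both arrays of sham mouse 1 stood apart. Their SD of log2 over rows was 1.54 on the operated side and 1.44 on the opposite side, against 2.33 to 2.39 on the other 6 sham arrays, and 1074 and 675 rows were above background against 8209 to 9077. The bacterial spike-in BioB, which is added at a fixed amount before hybridisation, averaged 10.4 and 10.2 in that mouse and 7.57 to 8.28 in the others. Side differences are therefore given for the 3 pairs of mice 2, 3 and 4 unless 4 pairs are named. With 4 pairs the sign of the difference was the other one in 48 of the 189 named genes, and 0 of these genes were called either way. The tissue label held on these 6 arrays: 16 of 16 pan-neuronal markers were above background on all of them, as were 15 of 15 markers of striatal medium spiny neurons and 15 of 15 of cortical projection neurons. Of 12 markers of choroid plexus and ependyma and of 15 of neutrophils and monocytes, 0 were above background on all 6 arrays. The Purkinje cell gene Pcp2 was not above background on any sham array.

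The comparison asked whether transcripts differ between the side of a sham operation and the other side of the same brain. With 3 pairs, limma called 0 of 22206 rows (0%) at an adjusted p under 0.05, and the smallest adjusted p was 0.432. With 4 pairs it also called 0 (0%), with a smallest adjusted p of 0.263. At an unadjusted p under 0.05 there were 1220 rows (5.49%) with 3 pairs, of which 621 (2.8%) were higher and 599 (2.7%) lower on the operated side, and 1390 (6.26%) with 4 pairs. Among the 7628 rows above background on all 6 arrays the same criterion held for 27 higher (0.354%) and 89 lower (1.17%) with 3 pairs. With 4 pairs it held for 173 higher (2.27%) and 135 lower (1.77%), so the more frequent direction was the other one. The difference had the same sign in all 3 mice in 24% of rows, split into 11.5% higher and 12.5% lower, and in all 4 mice in 11.6%. Of the rows above background, 9.29% were higher and 13.7% lower in 3 of 3 mice, and 5.48% were higher and 4.96% lower in 4 of 4.

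The intervals of single rows, which are not adjusted for the number of rows, give the precision of the 3-pair differences in the 20-array fit. That fit pools the spread over sham and MCAO mice, with 8 residual degrees of freedom. The 3 sham pairs alone leave 2. The median standard error over the rows above background was 0.136 log2 units. For 7625 of these 7628 rows the 95% interval of the side difference lay within 1 log2 unit of 0, and for 6555 (85.9%) within 0.5. A difference of 1 or more was estimated for 0 of them. Over all 22206 rows, dim ones included, the interval lay within 1 unit for 21465 (96.7%). With sham mouse 1 included the median standard error of the rows above background was 0.208 and 6559 of their intervals lay within 1 unit.

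The spread of the side difference over rows was close among mice 2, 3 and 4, with SDs of 0.358, 0.384 and 0.363 log2 units, and was 0.992 in sham mouse 1. In MCAO mice it was 0.312 to 0.399, apart from MCAO mouse 3 at 0.953, whose arrays also had an SD of log2 under 2. The mean was 0.369 ± 0.014 (SD, n = 3) in sham and 0.356 ± 0.033 (SD, n = 7) in MCAO mice without these animals, a difference of 0.013 (exact two-sided permutation p = 0.542 over 120 regroupings, where 0.00833 is the smallest possible). With all 12 mice the means were 0.524 ± 0.312 (SD, n = 4) and 0.430 ± 0.213 (SD, n = 8), and the exact permutation test gave a two-sided p of 0.6. Over the rows above background, differences of 1 or more numbered 0 in sham mouse 2, 3 in mouse 3 and 1 in mouse 4, against 2735 in mouse 1. They numbered 4 to 36 in MCAO mice without mouse 3, more than in any of sham mice 2, 3 and 4. Over these rows the mean SD was 0.212 ± 0.016 (SD, n = 3) in sham and 0.237 ± 0.029 (SD, n = 7) in MCAO mice. The exact two-sided permutation p was 0.2.

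**Figure D1:**
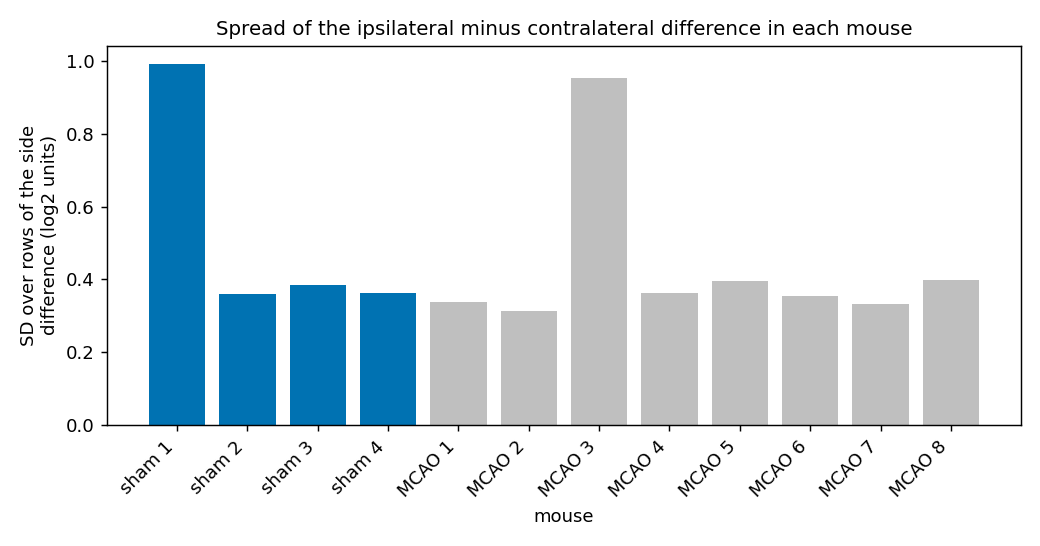
SD over all tested rows of the ipsilateral minus contralateral log2 difference, 1 bar per mouse, for the 4 sham mice (blue) and the 8 MCAO mice (grey). Sham mice 2 to 4 lie between 0.358 and 0.384 and within the range of the MCAO mice, while sham mouse 1 is at 0.992 and MCAO mouse 3 at 0.953.

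The side differences of one sham mouse had little in common with those of another. Described across the 7628 rows above background, the side differences of any pair of mice 2, 3 and 4 correlated at -0.09 to 0.06, and the 3 mice share no arrays. For the 21 pairs of MCAO mice without mouse 3 the same description gave -0.11 to 0.35 with a median of 0.10, over rows chosen on the sham arrays. The sides of one sham mouse were closer than different mice: the median SD between the sides was 0.126 log2 units, against 0.178 between mice on the same side.

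Immediate early genes, which supplied 12 of the 30 rows called between the sides after occlusion, had no called side difference in sham brains. Over the 28 measured immediate early transcription factors the median side difference was -0.01 log2 units with 3 pairs, against -0.00 over all rows, and 0 members reached even an unadjusted p under 0.05 in limma. The median was 0.10 in mouse 2, -0.07 in mouse 3 and -0.01 in mouse 4. In MCAO mice without mouse 3 it was 0.59, with 12 members called and 0.38 to 0.91 in single mice.

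Fos, which codes for a subunit of the AP-1 transcription factor, measured 5.44, 5.91 and 5.36 log2 units on the operated side of mice 2, 3 and 4 and 5.34, 5.69 and 5.38 on the opposite side. It was a little higher on the operated side in 2 of these mice, and the sides overlapped. The difference was 0.10 ± 0.35 (SE, adjusted p = 0.999), with a 95% interval of -0.66 to 0.86, and Fos was above background on 1 of 3 arrays of each side. In sham mouse 1 Fos was at 4.38 and 4.03, not above background.

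Junb, an AP-1 partner that was brighter, measured 6.36, 6.23 and 5.95 on the operated and 6.21, 6.28 and 6.04 on the opposite side. These values overlapped, with a difference of 0.00 ± 0.19 and an adjusted p of 0.999. Egr1, a zinc finger factor with high resting expression in forebrain neurons, measured 10.52, 10.02 and 10.06 against 10.23, 10.14 and 10.21, with a difference of 0.00 ± 0.19. It was higher on the operated side in mouse 2 and lower in mice 3 and 4, and with 4 pairs the difference was 0.49 ± 0.28 (adjusted p = 0.711). Npas4, a factor induced by neuronal activity, was not above background on any sham array, and its difference of -0.36 ± 0.63 was the least precise among the immediate early genes.

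Among the 25 measured effectors of neuronal activity, Arc was higher and Bdnf, a neurotrophin, lower on the operated side in 4 of 4 sham mice, as were 5.2% and 6.35% of all rows. Arc, a synaptic protein made after neuronal activity, measured 6.84, 6.35 and 6.48 on the operated side and 6.31, 6.22 and 6.09 on the opposite side. The sides did not overlap over these mice, and mouse 1 was lower on both, at 5.10 against 4.49. The difference was 0.35 ± 0.26 (adjusted p = 0.982), with an interval of -0.22 to 0.92. For Bdnf, named after its values were seen, it was -0.17. The phosphatase gene Dusp1, which limits MAP kinase signalling, measured 8.72, 8.86 and 8.81 against 8.60, 8.63 and 8.69, and in sham mouse 1 it was at 5.98 against 6.94, the opposite order. Ptgs2 (inducible cyclooxygenase), Rgs2 (which dampens G protein signals) and Nr4a1 (an orphan nuclear receptor) had differences of -0.11 ± 0.26, -0.11 ± 0.29 and -0.27 ± 0.31. The median over the 25 effectors was -0.08, and 0.11 with 4 pairs, with 0 called and 1 lower at an unadjusted p under 0.05, the receptor gene Mas1, not above background on any sham array.

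**Figure D2:**
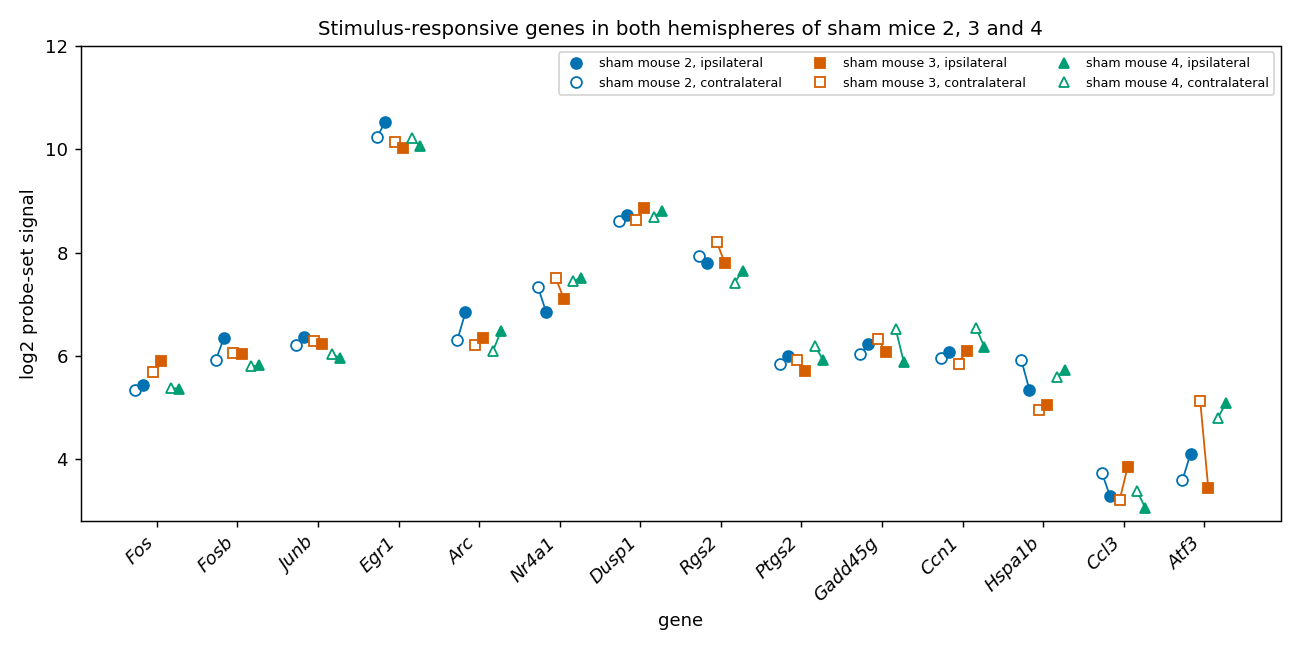
Log2 probe-set signal of 14 stimulus-responsive genes on the ipsilateral (filled) and contralateral (open) side of sham mice 2, 3 and 4, with a line joining the sides of a mouse. The sides of a mouse lie close together for Fos, Junb, Egr1 and Dusp1, while Atf3 in mouse 3 is at 5.13 on the contralateral and 3.44 on the ipsilateral side, both below background.

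The rows called after occlusion were then read in the sham mice. Of 22206 rows, 30 (0.135%) were called between the sides of MCAO mice without mouse 3, of which 28 were higher on the occluded side, with a median difference of 1.29 and a range of 0.47 to 2.70. In the sham mice the same 28 rows had a median of -0.01 and a range of -0.36 to 0.35, and 13 of them were positive. All 28 sham 95% intervals included 0, and in all 28 the upper bound lay below the mean difference of the MCAO mice. These rows were chosen by the MCAO comparison, so no test of them is drawn from the 2 contrasts. Both contrasts use the spread of the same fit, and a called row has an MCAO difference that is large against it. For a sham difference near 0, an upper bound below the MCAO mean therefore follows largely from the choice of rows. Over all rows, the interaction of side and surgery called 0 rows (0%) in limma, with 1312 (5.91%) at an unadjusted p under 0.05.

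The upper bounds show how large a side difference sham surgery could have carried in these genes. For Atf3, a stress-induced factor, the sham interval was -0.97 to 0.38, and the MCAO difference was 1.60. The sham difference of Atf3 was -0.29 with 3 pairs, but 0.40 when mouse 3 was also left out. For Ccn1, a secreted matrix protein, the sham difference was 0.01 ± 0.32. For the chemokine gene Ccl3, not above background on the sham arrays, it was -0.04 ± 0.34 against 2.46 after occlusion. The highest sham upper bound was 1.01, for Npas4, and the other 27 lay below 1.

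The inducible chaperone genes Hspa1a and Hspa1b are near-identical copies whose probe sets can share signal. Hspa1a measured 5.59, 5.66 and 5.52 on the operated and 5.88, 5.14 and 5.89 on the opposite side of mice 2, 3 and 4, higher on the operated side in mouse 3 and lower in the other two. The difference was -0.05 ± 0.40, and for Hspa1b it was -0.11 ± 0.42.

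The rows that were lower on the occluded side differed from each other in sham brains. Zfp189, a zinc finger gene, measured 5.94, 5.70 and 5.58 on the operated and 6.19, 6.20 and 5.82 on the opposite side, and 6.19 against 6.93 in mouse 1. It was lower on the operated side in 4 of 4 sham mice, with a difference of -0.33 ± 0.16 (adjusted p = 0.942) on 3 pairs, against -0.66 ± 0.10 after occlusion. The interaction was -0.33 with an adjusted p of 0.867. Cstad, a gene not above background on any sham array, was at 0.30 ± 0.12 in sham and -0.47 ± 0.08 in MCAO mice.

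**Figure D3:**
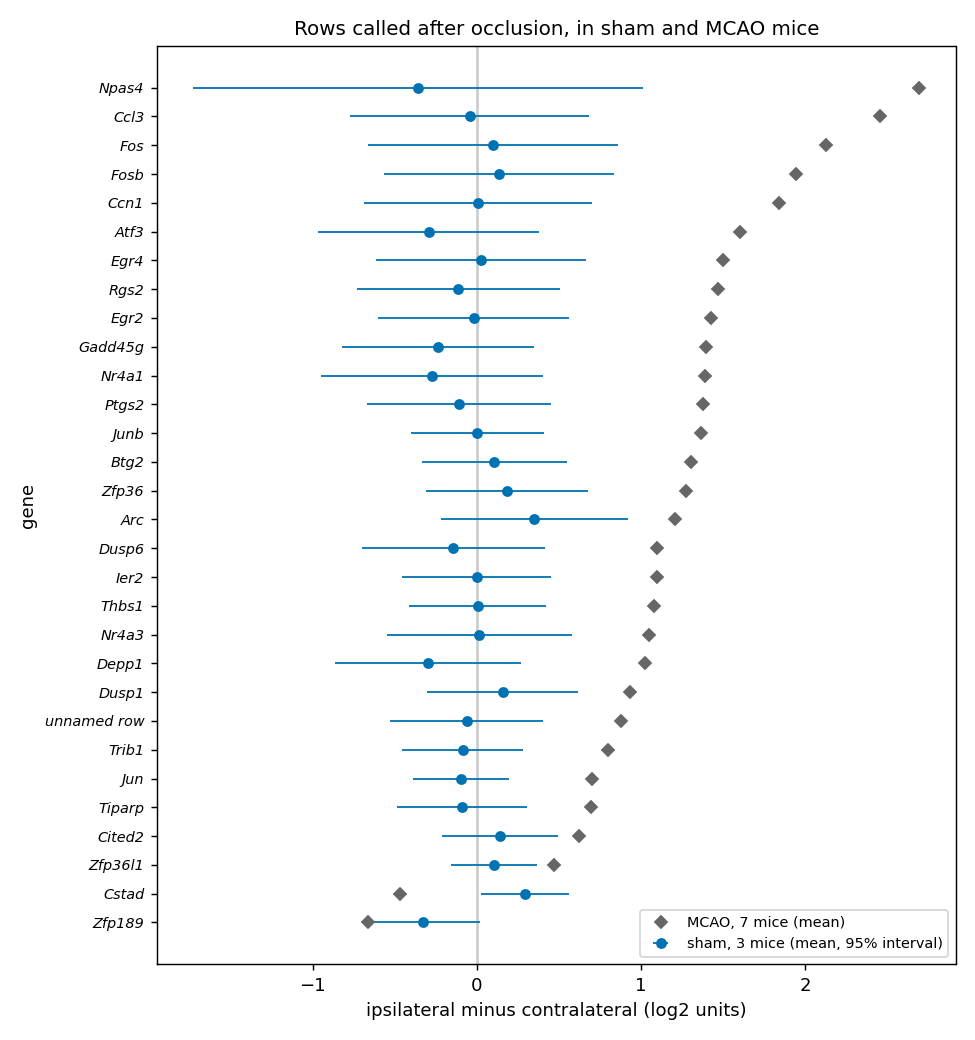
Ipsilateral minus contralateral log2 difference of the 30 rows called after occlusion, as the sham mean of 3 mice with its 95% interval (blue) and the MCAO mean of 7 mice (grey diamonds). The sham means of the upper 28 rows lie between -0.36 and 0.35 and every interval ends to the left of its grey diamond. The rows were chosen for a large MCAO difference, so that position follows largely from the choice. Cstad and Zfp189 are the bottom rows.

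Marker genes of regions and cell types were compared next; operation and dissection cannot be told apart in them. For the striatum, a subcortical nucleus made mostly of medium spiny neurons, the 15 measured markers had a median of 0.05, and 0.30 with 4 pairs, with 0 called. The single mice differed in sign: 14 of 15 markers were higher on the operated side in mouse 2 and 14 of 15 in mouse 4, while 13 of 15 were lower in mouse 3. The medians were 0.17 in mouse 2, 0.14 in mouse 4 and -0.18 in mouse 3. Over all rows above background, 42.1%, 51.8% and 47.7% were higher in mice 2, 4 and 3. In MCAO mice without mouse 3 the median of the list ranged from -0.11 to 0.54.

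Drd2, the dopamine receptor of the indirect striatal pathway, measured 7.91, 7.11 and 7.27 on the operated and 7.28, 8.09 and 7.03 on the opposite side of mice 2, 3 and 4. It was 0.63 higher on the operated side in mouse 2 and 0.99 lower in mouse 3, and so averaged -0.04 ± 0.26. With 4 pairs it was at 0.49 ± 0.32 (adjusted p = 0.715). Drd1, the receptor of the direct pathway, measured 7.64, 8.00 and 7.45 against 7.47, 8.13 and 7.34, with much smaller gaps and a difference of 0.05 ± 0.18. Penk, the enkephalin precursor, measured 11.16, 11.32 and 10.96 against 10.86, 11.35 and 10.64, and Ppp1r1b, which codes for DARPP-32, measured 9.51, 9.73 and 9.35 against 9.42, 9.90 and 9.02. Both followed the order of the list, lower on the operated side in mouse 3 only. In sham mouse 1 Penk was at 10.49 and 5.61, the lower value not above background, and with that pair the Penk difference was 1.37 ± 0.68 (adjusted p = 0.711).

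Mouse 3 also held other wide side differences, singled out after the values were seen. Pvalb, the calcium-binding protein of fast-spiking interneurons, was at 7.45 on its operated and 6.32 on its opposite side, and Nefh, the neurofilament heavy chain of large axons, at 7.45 and 6.55. In mouse 2 the order was reversed, with Pvalb at 7.03 and 7.41 and Nefh at 7.51 and 7.72. Mouse 4 had nearly equal sides, at 7.68 and 7.52 for Pvalb and 7.38 and 7.33 for Nefh. The differences over 3 pairs were 0.30 ± 0.21 and 0.25 ± 0.19, and with 4 pairs Pvalb was at 0.80 ± 0.29 (adjusted p = 0.711).

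Cortical projection neuron markers were level, with a median of -0.00 over 15 genes and -0.04 to -0.01 in single mice, but 0.17 with 4 pairs. Tbr1, a transcription factor of deep-layer neurons, measured 8.63, 8.38 and 8.56 on the operated and 8.90, 8.27 and 8.65 on the opposite side. Pan-neuronal markers had a median of -0.01 over 16 genes, and Snap25, a synaptic vesicle fusion protein, measured 11.71, 11.28 and 11.28 against 11.57, 11.34 and 11.25. Its difference was 0.03 ± 0.12, with a 95% interval of -0.23 to 0.29. In sham mouse 1 Snap25 was at 10.34 and 6.94, and the pan-neuronal median of that mouse was 1.66, so that the median with 4 pairs became 0.41.

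Oligodendrocyte and myelin genes, which mark the cells that wrap axons, had a median of -0.17 over 18 genes. On the operated side 10 of 18 were lower in 3 of 3 mice, against 12.5% of all rows and 13.7% of those above background. The medians were -0.08, -0.28 and -0.11, and 3, 1 and 6 of the 18 were higher in mice 2, 3 and 4, against 42.1%, 47.7% and 51.8% of the rows above background. In 4 of 4 mice 4 members were lower, and the median with 4 pairs was -0.14. In limma 0 members were called, and 2 were lower at an unadjusted p under 0.05, Mag and the dim gene Gjb1. Mag, a myelin adhesion protein, measured 6.74, 6.68 and 6.46 on the operated and 6.97, 6.82 and 6.87 on the opposite side, lower in each mouse, with a difference of -0.26 ± 0.11 (adjusted p = 0.874). Mobp, a compact myelin protein, measured 9.37, 8.97 and 9.04 against 9.45, 9.40 and 9.22, also lower in each of these mice (-0.23 ± 0.15), but at 0.10 ± 0.33 with 4 pairs. Mbp, the most abundant of the list, measured 11.10, 11.15 and 11.22 against 10.98, 11.34 and 11.28, higher in mouse 2, with a difference of -0.05 ± 0.13. In sham mouse 1 the list median was 0.30, the other direction, and in MCAO mice without mouse 3 the list lay between -0.20 and 0.28.

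Olfactory bulb markers had the lowest median of the 35 lists, -0.23 over 12 genes, with -0.26, -0.15 and -0.27 in mice 2, 3 and 4. Only 5 of the 12 were above background on all 6 arrays, and 4 of 12 were lower in 3 of 3 mice, against 12.5% of all rows. Among the bright members, Meis2 measured 10.05, 9.75 and 9.53 on the operated and 9.81, 9.77 and 9.52 on the opposite side, with a difference of 0.07 ± 0.12 and, with 4 pairs, 0.41 ± 0.22 (adjusted p = 0.711). The interneuron factor Dlx2 measured 6.73, 5.96 and 5.84 against 6.60, 6.66 and 6.03, higher on the operated side in mouse 2 and lower in mice 3 and 4 (-0.26 ± 0.20). Dim members such as Eomes, Trh and Th had the lower values, from -0.58 to -0.31, and were not above background on any of these arrays. In sham mouse 1 the list median was 0.13, and with 4 pairs it was -0.19.

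Astrocyte and endothelial markers had medians near 0 with 3 pairs. For 16 astrocyte markers the median was 0.03, and 0.23 with 4 pairs, with 0 called and Fgfr3, a growth factor receptor of astrocytes, higher in each mouse (0.27 ± 0.12, adjusted p = 0.883). Gfap, the filament protein that reactive astrocytes accumulate, measured 7.81, 7.51 and 7.98 on the operated and 7.40, 7.84 and 7.54 on the opposite side. It was higher on the operated side in mice 2 and 4 and lower in mouse 3 (0.17 ± 0.21). Endothelial markers had a median of 0.02, and 0.03 with 4 pairs, and the tight junction gene Cldn5 measured 5.87, 6.44 and 7.00 against 6.20, 6.51 and 6.79, a wider range between mice than between sides.

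Microglia, the resident macrophages of the brain, had 1 of 15 markers, P2ry12, higher on the operated side in 4 of 4 sham mice and 1, Siglech, lower in 4 of 4. Over all rows these shares were 5.2% and 6.35%. P2ry12 (probe set TC0300002054.mm.2), the purinergic receptor by which resting microglia sense ADP, measured 7.52, 7.42 and 7.83 on the operated and 7.40, 7.10 and 7.16 on the opposite side, and 6.17 against 4.80 in mouse 1. The operated side was higher in 4 of 4 mice and the sides did not overlap over mice 2, 3 and 4. The difference was 0.37 ± 0.14 (adjusted p = 0.835) with 3 pairs and 0.62 ± 0.19 (adjusted p = 0.711) with 4, and it did not pass the threshold in either. Siglech, a lectin of microglia named after its values were seen, was at -0.17. Cx3cr1 and Tmem119, also expressed by resting microglia but above background on at most 1 of these arrays, were at 0.09 ± 0.12 and 0.18 ± 0.14. The median over 15 microglia markers was 0.08, and -0.05, 0.01 and 0.19 in mice 2, 3 and 4. In sham mouse 1 it was -0.95, with 12 of 15 markers lower, and with 4 pairs it was -0.24, the other sign.

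**Figure D4:**
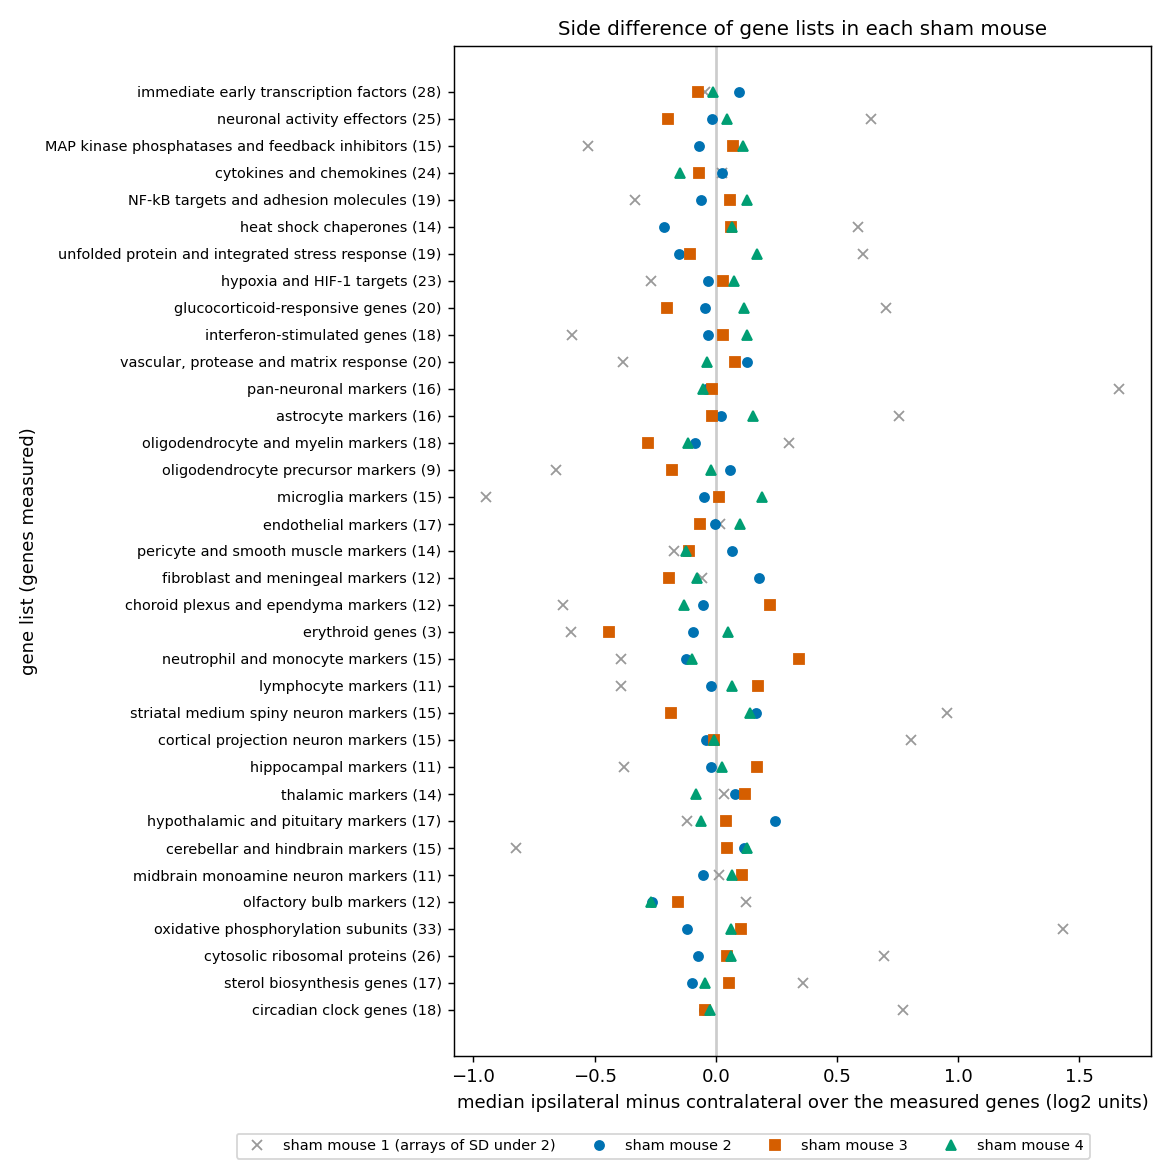
Median ipsilateral minus contralateral log2 difference of 35 gene lists in each sham mouse, with the number of genes measured in brackets. Mice 2, 3 and 4 lie between -0.44 and 0.34 on every list, while sham mouse 1 (crosses) reaches from -0.95 to 1.66.

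Over all 35 lists, 0 members were called with 3 or with 4 pairs. The list medians with 3 pairs ran from -0.23 to 0.09 and 32 of them were within 0.1 of 0. With sham mouse 1 included they ran from -0.25 to 0.41, and 19 of 35 had the other sign. The exceptions with 3 pairs were the olfactory bulb and oligodendrocyte lists and the erythroid genes at -0.13, of which 3 of 10 were measured and 0 were above background on all 6 arrays. In 1 list the median was positive in each of mice 2, 3 and 4, the cerebellar and hindbrain markers, of which 2 of 15 were above background on all 6 arrays. In 5 it was negative in each. Heat shock chaperones were at -0.05 (0.26 with 4 pairs), hypoxia and HIF-1 targets at 0.03 (0.03) and glucocorticoid-responsive genes at -0.04 (0.13). NF-kB targets were at 0.05 (-0.06 with 4 pairs), cytokines and chemokines at -0.04 (-0.002) and interferon-stimulated genes at 0.02 (-0.07). Of the NF-kB, cytokine and interferon lists, 2 of 19, 5 of 24 and 0 of 18 measured members were above background on all 6 arrays. Their medians therefore rest mostly on dim rows. Among the genes of all these lists Bag3, a co-chaperone, and Hspb8, a small heat shock protein, were at 0.54 ± 0.18 and 0.45 ± 0.16. Neither was above background on any sham array. Tnfaip2 at 1.15 ± 0.33 and Tnfaip3 at -0.84 ± 0.30 were as dim, and 0 of these 4 passed the threshold.

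The genes nearest to a call, filled up by smallest p among rows of one sign in every mouse, changed with the mice used. They also had to be above background on the brighter side. Their signs, any lack of overlap between sides and their counts of arrays above background follow in part from that choice and test nothing. With 3 pairs these were 8 higher genes (differences of 0.31 to 0.59) and 8 lower ones (-0.68 to -0.40), with adjusted p-values of 0.432 to 0.796, and 3 and 2 of them were above background on all 6 arrays. With 4 pairs there were again 8 and 8, all with an adjusted p of 0.711, and 1 gene, Slc39a7, stood in both selections. Slc39a7, a zinc transporter of the endoplasmic reticulum and Golgi, measured 6.51, 7.12 and 7.04 on the operated and 6.31, 6.36 and 6.44 on the opposite side, and 6.31 against 5.65 in mouse 1. The operated side of mice 2, 3 and 4 was higher without overlap, by 0.52 ± 0.14 (adjusted p = 0.743). In MCAO mice without mouse 3 the same gene was at -0.10 ± 0.09.

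The lowest adjusted p among these belonged to Poc1b, which codes for a centriole protein. It measured 5.49, 4.81 and 5.07 on the operated and 5.89, 5.76 and 5.76 on the opposite side, without overlap, and 5.80 against 6.44 in mouse 1. The difference was -0.68 ± 0.13 (adjusted p = 0.432), and the gene was above background on 0 of 3 operated and 3 of 3 opposite arrays. It thus passed the background filter only through the side where it was higher. Rassf3, a Ras-association domain gene, measured 5.33, 5.34 and 5.58 against 5.93, 5.92 and 6.19, again without overlap (-0.59 ± 0.13, adjusted p = 0.532), but was 0.14 higher on the operated side of mouse 1. Capn1, a calcium-activated protease, measured 5.54, 5.52 and 5.43 against 6.14, 5.77 and 6.00 (-0.47 ± 0.13, adjusted p = 0.753). Of the higher genes, Plp2, a membrane proteolipid above background on all 6 arrays, was at 6.33, 6.19 and 6.18 against 6.13, 5.65 and 5.78 (0.38 ± 0.12, adjusted p = 0.789). Pax6, a neural transcription factor, measured 5.64, 5.85 and 5.58 against 5.40, 5.35 and 4.90, and Mgp, a matrix protein of vessel walls and meninges, 5.32, 5.77 and 6.08 against 4.65, 5.75 and 5.08. Both were near background, with 2 of 3 operated arrays above it.

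Some genes differed between whole mice in a way that both hemispheres shared. In the 12 named rows with the greatest SD between the means of mice 2, 3 and 4, chosen after the values were seen, that SD was 0.693 to 0.820, against 0.039 to 0.268 between the sides of a mouse. In 12 of 12 the range of the mouse means exceeded the greatest side difference, and in 11 of 12 mouse 2 stood apart. The rows were picked by the SD of these mouse means, so both counts, and the 3 genes given next, describe that choice and test nothing. Wipf2, an actin regulator, measured 9.76 and 9.68 on the operated and opposite side of mouse 2, 8.54 and 8.57 in mouse 3 and 8.43 and 8.47 in mouse 4. Gfra2, a receptor subunit for neurturin, measured 9.87 and 9.76 in mouse 2, 8.41 and 8.43 in mouse 3 and 8.30 and 8.52 in mouse 4. Cpe, a carboxypeptidase that processes neuropeptides, ran the other way, at 8.91 and 9.07 in mouse 2, 9.97 and 10.13 in mouse 3 and 10.31 and 10.77 in mouse 4. In MCAO mice without mouse 3 the mean of both sides lay between 8.34 and 9.03 for Wipf2, 8.47 and 9.32 for Gfra2 and 9.72 and 10.56 for Cpe, so mouse 2 was outside the range of those animals for all 3 genes. For Gfra2, mice 3 and 4 lay just below that range as well. These differences between mice leave the side comparison within a mouse, in which they cancel.

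**Figure D5:**
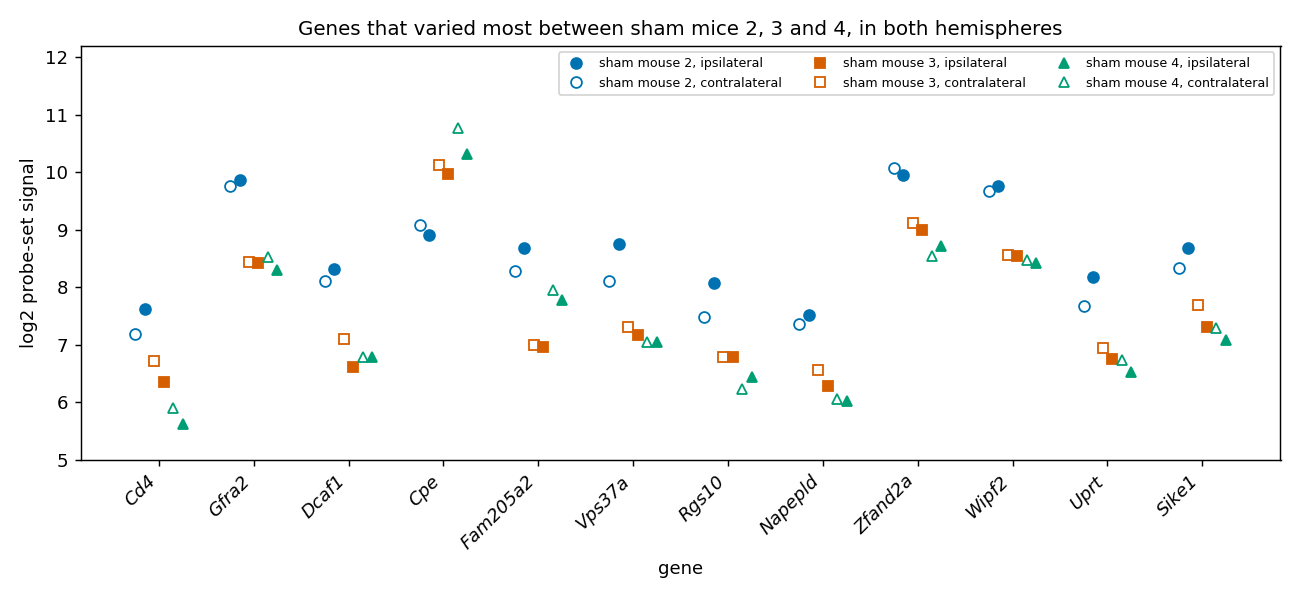
Log2 probe-set signal of the 12 named rows with the greatest SD between sham mice 2, 3 and 4, on the ipsilateral (filled) and contralateral (open) side. Both sides of mouse 2 lie apart from the other mice in 11 of 12 genes, lower for Cpe and higher for the others.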

How the data were processed

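The authors deposited probe-set signals on a log2 scale (inferred from the values). The submitters' processing notes name Affymetrix Expression Console. For its version, the normalization and the annotation build: not given in the sources used here. Of 29129 rows, 6923 array controls were left out.

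Side differences were fitted with limma 3.58.1 (R 4.3.3) on all 24 arrays, or on 20 without the mice with an array of SD under 2 (sham mouse 1 and MCAO mouse 3), with mouse as a fixed block and Benjamini-Hochberg adjustment over all 22206 rows. Values for 3 pairs come from the 20-array fit. Errors are standard errors unless SD is written. Both hemispheres come from 1 animal per the titles, and in the 3 pairs their deviations from group means correlated at 0.11 to 0.31. Opposite sides of different mice among the 20 arrays gave -0.20 to 0.17, which overlaps that range. In 0 pairs of arrays were values identical.

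The comparison, the lists (569 of 625 genes matched, at the row with the highest mean) and the anchor genes (50 of 54) were chosen with earlier results of these data known. Other named genes were up to 10 called rows a direction, filled to 8 by smallest p among rows of one sign in every pair above background on the brighter side, with 1 or 2 genes of smallest p per list and the rows called after MCAO. Genes outside this rule are said to be chosen after their values were seen. The fit was run on simulated data with independent noise, planted side differences and no differences between mice. That run checks the code and does not measure the power for small differences in these data. Alternatives covered the block, eBayes settings, dim rows, centring, quantile normalization, array weights and leaving out mice. Figures used matplotlib 3.10.9.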

Additional observations from a re-analysis of the deposited data

Results flagged for a closer look

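In groups of 4 sham arrays or 4 sham mice, 129 values were tested for 1 sample far from the other three, and 34 stood apart, where chance gives about 1 in 20. Sham mouse 1 accounted for 32 of them. On its operated and opposite arrays the SD of log2 was 1.54 and 1.44, the 95th percentile of negative controls 7.48 and 7.61, the mean of positive controls 4.99 and 4.69, and the rows above background 1074 and 675. Its BioB spike-in on the operated side was at 10.4. The SD of its side difference was 0.992, and the median was -0.044 over all rows and 0.31 over rows above background. Its list medians stood apart for pan-neuronal markers (1.66), oxidative phosphorylation subunits (1.43), cortical projection neuron markers (0.81), circadian clock genes (0.77) and cerebellar and hindbrain markers (-0.83).

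Single genes whose side difference in sham mouse 1 lay far above the other mice were Penk at 4.88, Snap25 at 3.40, Per1 at 2.49, Rell2 at 2.33, Map2k5 at 2.24, Ufc1 at 2.17, Mog at 1.68, Fkbp5 at 1.64, Sgk1 at 1.37 and Rassf3 at 0.14. Far below were Ramp3 at -3.02, Syt17 at -2.07, Dusp1 at -0.96, Tsc22d3 at -0.88 and Pigq at -0.75. In sham mouse 3, the dim gene Atf3 was at -1.69 and Gfap at -0.33, each below the other 3 mice.

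Specc1 was lower on the operated side in 4 of 4 sham mice and higher in 8 of 8 MCAO mice. Its sham difference was -0.56 with 4 pairs and -0.26 with 3, so sham mouse 1 moved it by over 1.5 times. The flag required the same sign in every sham mouse and the opposite sign in every MCAO mouse. It was sought among named genes only, so both counts describe that choice. This opposition of signs was not tested as such. The interaction of side and surgery without the mice with an array of SD under 2 was 0.37, with an adjusted p of 0.739 in limma.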

How the results depend on the processing

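Over 23 alternatives the sham side difference gave 0 called rows in 21, with 131 to 2110 rows at an unadjusted p under 0.05. Leaving out 1 sham mouse gave 0 to 1 called rows, and the 1 came without replicate 3, as it did without the arrays of SD under 2 and replicate 3 (1 row, Olfr782, not above background on those arrays). With no replicate block, the pairing of hemispheres ignored, 0 were called and 131 had an unadjusted p under 0.05. The interaction gave 0 in 19 of 21 alternatives, 1 (Ccn1) with mouse as a random block, and 2 (Junb and Ccl3) among the brighter rows without the arrays of SD under 2. The sham minus MCAO difference in mean SD was 0.0939 over all mice, -0.0248 over rows above background without the arrays of SD under 2, and -0.0619 to 0.149 when 1 sham mouse was left out. The rows above background were chosen on sham arrays alone, and the cause of these moves was not tested. Alternatives without the arrays of SD under 2 that changed a second choice were added after seeing the data. List medians turned sign in 19 of 35 lists between 4 and 3 pairs. With 3 pairs, 85.9% of rows above background had an interval within 0.5 log2 units of 0, but differences larger than 0.5 were not called after adjustment, and dim rows were less precise.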

Other observations

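A cluster of near-identical genes shows the same contrast between mice and sides as the genes of the last comparison. Probe sets named Ccl21b, a chemokine of lymphoid tissue, Gm10591 and Gm13304 were lower in both hemispheres of sham mouse 3 than in mice 2 and 4. The Gm13304 row measured 6.14 and 6.24 on the operated and opposite side of mouse 3, 7.28 and 7.37 in mouse 2 and 7.06 and 7.17 in mouse 4. The Gm10591 row TC0400000411.mm.2 measured 6.12 and 6.25 in mouse 3, 7.34 and 7.32 in mouse 2 and 7.26 and 6.91 in mouse 4. In MCAO mice without mouse 3, the mean of both sides lay between 6.17 and 7.96 for Gm13304. Several of these rows held the same values, and copies of such genes can share signal, so they are not independent. These genes were chosen after their values were seen.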
